A study of Mus musculus with 12 samples.

Results

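Rlbp1 and 7 other genes that bind, make or sense retinoids were followed in Larp7 mutant mouse tissue and cultures. The 8 members were chosen by symbol with Rlbp1 selected on its rise in knockout neurospheres, and they are 8 of the 40814 genes of the neurosphere count table. Bulk RNA came from neurospheres of P1 dentate gyrus at day 2 of differentiation, in 2 wild-type (Larp7-floxed) and 3 Larp7 f/f;Emx1-Cre cultures, and single-cell RNA came from P7 dentate gyrus, in 1 library from Larp7 f/f;nestin-Cre mice, 1 from Larp7 f/f;Emx1-Cre mice and 1 from wild-type mice. Emx1-Cre acts in the dorsal forebrain lineage and nestin-Cre in neural progenitors and their progeny, so microglia, vessels and meninges keep an intact gene in principle. Each P7 library pooled the gyri of several littermates. For both mutant P7 libraries the genotype entry names the other driver than the title does, and the titles were followed here. The labels alone do not settle which driver belongs to which library. The library titled nestin-Cre held 7177 barcodes and the one titled Emx1-Cre 6821. The paper's count of nestin-Cre cells after filtering lies between these, too high for the library titled Emx1-Cre, so the titles match the paper.

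Retinoids are derivatives of vitamin A. Retinol is oxidized to retinaldehyde by dehydrogenases such as Rdh10 and then to retinoic acid by retinaldehyde dehydrogenases such as Aldh1a1. Inside the cell, Rlbp1 (also called CRALBP) carries retinaldehyde and retinol and is best known from Müller glia and pigment epithelium of the eye, whereas Crabp1 and Crabp2 carry retinoic acid. Rara and Rarb are retinoic acid receptors that bind DNA as dimers with retinoid X receptors such as Rxra, and Rarb is a classical target of retinoic acid.

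Promoters of the members are shown because the receptors among them act on a known DNA element, a pair of half-sites in direct repeat. The search covered the half-site AGGTCA, the variant GGGTCA, the variant AGTTCA and the variant GGTTCA on both strands, spaced by 1, 2 or 5 bases (DR1, DR2, DR5), in RefSeq promoters of GRCm38.p6 that span 300 bases around each start site. Promoters were found for 6 of the 8 members (none for Crabp2 and Rdh10). One match was found, a DR5 in the promoter of Rarb, whose half-sites are in capitals. Of all 32851 promoters, 0.0974% held a DR5, 0.268% a DR2 and 0.222% a DR1. The Rlbp1 gene (Entrez 19771) lies on the minus strand of chromosome 7 from 79374865 to 79392250. The promoter searched for it, from 79386978 to 79387277, lies inside this span, so a start site nearer 79392250 was not covered. That promoter held none of the 3 letter patterns. A match describes these letters only.
Rarb, chr14:16575427-16575726, minus strand: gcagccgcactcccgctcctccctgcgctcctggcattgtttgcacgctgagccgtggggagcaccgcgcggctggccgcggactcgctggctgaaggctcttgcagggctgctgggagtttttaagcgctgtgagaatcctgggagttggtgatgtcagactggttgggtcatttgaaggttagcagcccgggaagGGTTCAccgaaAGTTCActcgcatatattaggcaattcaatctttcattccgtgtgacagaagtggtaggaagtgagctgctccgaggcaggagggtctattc
Rlbp1, chr7:79386978-79387277, minus strand: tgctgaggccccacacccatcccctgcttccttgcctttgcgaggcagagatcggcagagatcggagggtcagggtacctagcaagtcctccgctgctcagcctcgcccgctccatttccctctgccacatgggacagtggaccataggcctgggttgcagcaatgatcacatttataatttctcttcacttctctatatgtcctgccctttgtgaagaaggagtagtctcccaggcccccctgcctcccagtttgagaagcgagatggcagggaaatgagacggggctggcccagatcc

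The targeted gene followed the labels in neurospheres and RGL-like cells. It was also lower in mutant microglia-like cells, and the cause of that was not tested. Neurosphere libraries held between 59821311 and 62474602 counts. Larp7 stood at 42.8 and 35.0 CPM (counts scaled to a common library total with TMM factors) in wild-type cultures and at 4.17, 6.35 and 4.39 CPM in knockout cultures. The P7 libraries held 28918491 (wild-type), 26689878 (nestin-Cre) and 28537738 (Emx1-Cre) UMIs (unique molecular identifiers, 1 per captured RNA molecule), and 10997, 6685 and 6531 cells passed the filter. Larp7 stood at 53.6, 11.5 and 9.90 CPM (UMIs over all UMIs of the class, on the CPM scale) in RGL-like cells and at 60.6, 35.9 and 37.6 CPM in microglia-like cells, in the order wild-type, nestin-Cre, Emx1-Cre that is kept throughout. The wild-type library was the shallowest per cell, with a median of 1782 UMIs against 3644 and 3873, and 33.9% of its cells carried no class name against 7.91% and 6.06%. Between 11 and 23 cell barcodes were shared by each pair of libraries.

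In neurospheres, Rlbp1 was the most abundant member per length and the member with the highest level in knockout cultures. It stood at 78.0 and 80.9 CPM in wild-type cultures and at 190, 241 and 232 CPM in knockout cultures. Every knockout culture lay above both wild-type cultures. The difference was 2.78-fold (log2 fold change 1.47, SE 0.11). Since Rlbp1 was chosen on this contrast, the values are a description and no p is given. Of 17753 genes tested with edgeR, 0.0225% were called higher and 0.0451% lower in knockout cultures at an adjusted p of 0.05. Per kilobase of exon, its mean level was 24.1 RPKM in wild-type and 66.9 RPKM in knockout cultures, against 6.32 and 6.00 RPKM for Rxra, the next member.

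The binding proteins for retinoic acid were scarce in these cultures. Crabp1 was at 0 reads in 4 libraries and at 4 reads in the other one, and did not pass the filter on low counts. Crabp2 stood at 0.166 and 0.199 CPM in wild-type and at 0.806, 0.373 and 0.334 CPM in knockout cultures, which rests on 10 to 48 reads.

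Among the enzymes, Aldh1a1 was lower in knockout cultures and unequal between wild-type cultures. Aldh1a1 stood at 2.86 and 8.79 CPM in wild-type and at 1.73, 0.713 and 1.88 CPM in knockout cultures. The groups did not overlap, but the log2 fold change of -2.02 (SE 0.58) became -0.99 without the second wild-type culture. Groups also did not overlap for 13 of the 32 other retinoid genes tested below, of which edgeR called 0. Non-overlap alone is therefore not read as a result for any member. Rdh10 stood at 8.59 and 9.71 CPM in wild-type and at 12.7, 10.3 and 10.3 CPM in knockout cultures, a log2 fold change of 0.28 (SE 0.16).

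Of the 3 receptors among the members, Rarb stood at 8.15 and 6.92 CPM in wild-type and at 17.3, 8.46 and 10.5 CPM in knockout cultures (log2 fold change 0.68, SE 0.31). The first knockout culture was the high one and the second lay close to the wild-type range. Rara stood at 7.72 and 5.87 CPM against 8.82, 8.52 and 7.44 CPM, and its groups overlapped. Rxra stood at 34.4 and 37.7 CPM against 37.5, 32.1 and 33.1 CPM, and its groups overlapped too.

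**Figure D1:**
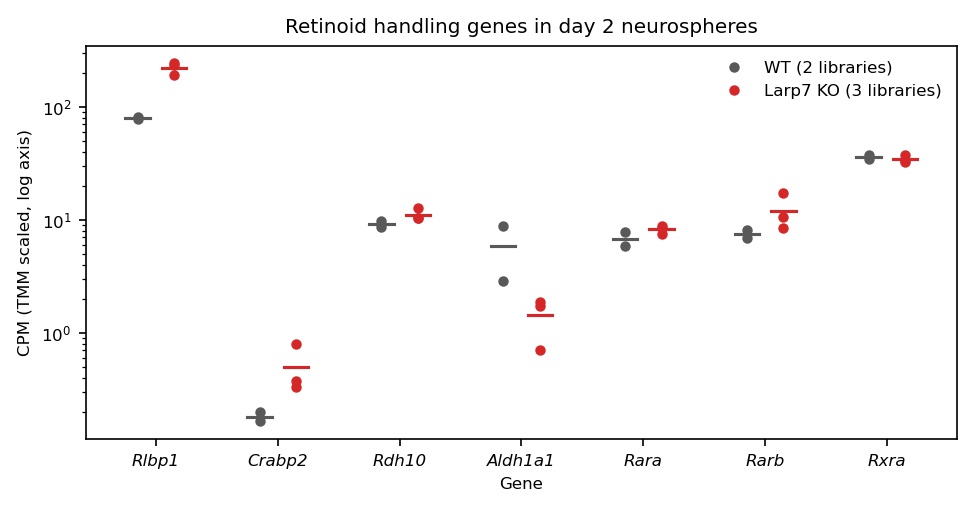
CPM on a log axis of the members detected in neurospheres, with 1 point per library and a line at each group mean (2 wild-type and 3 Larp7 knockout cultures). Rlbp1 lies at 78.0 and 80.9 CPM in wild-type and between 190 and 241 CPM in knockout cultures, and Crabp1, with 4 reads in all, is left out.

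The rest of the pathway was described with a list of 51 other genes of retinoid transport, storage, synthesis, breakdown and signalling. Of the 32 tested, edgeR called 0 higher and 0 lower, with 7 at an unadjusted p under 0.05, and the median log2 fold change of the list was -0.07. The count of 7 is not set beside the share of all genes at that p and is not read as a result. DESeq2 called 1 list gene higher and 1 lower, beside 793 higher and 944 lower of all 17748 genes it tested. The gene lower was Rdh14, a retinol dehydrogenase, at 14.98 and 16.6 CPM against 11.4, 11.4 and 12.7 CPM (DESeq2 adjusted p = 0.0348, edgeR adjusted p = 0.134). Rdh14 was named after its values were seen. These cultures mix cell types, and in bulk RNA fewer cells of a type and less RNA per cell cannot be told apart. Of the marker lists, the 10 astrocyte markers summed to between 1200 and 1857 CPM in wild-type and between 843 and 1028 CPM in knockout cultures, and none of them was at 0. The 7 oligodendrocyte markers summed to between 287 and 772 CPM and between 795 and 1277 CPM. The 8 OPC (oligodendrocyte precursor) markers summed to between 5248 and 5819 CPM and between 5271 and 5928 CPM, and the 10 RGL markers, of which Tfap2c was at 0, to between 707 and 795 CPM and between 790 and 893 CPM. The part of these shifts in the Rlbp1 difference was not tested.

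In P7 tissue, among classes with at least 50 cells in each library, Rlbp1 levels were highest in OPC-like and radial glia-like cells. Cells were clustered without the members and the pathway list, and classes were named from markers: radial glia-like (RGL-like), neuronal intermediate progenitor (nIPC-like), neuroblast-like, astrocyte-like, glial progenitor-like, OPC-like and others. RGL-like cells carried 27.0% of all Rlbp1 UMIs, neuroblast-like cells 16.3%, astrocyte-like cells 14.7% and nIPC-like cells 10.9%. By CPM the order was another. OPC-like cells stood at 277 CPM in wild-type, 259 CPM in nestin-Cre and 297 CPM in Emx1-Cre. RGL-like cells stood at 221, 221 and 237 CPM. The 95% intervals of OPC-like cells (236 to 322 in wild-type) and of RGL-like cells (204 to 239) overlapped in the wild-type library, so these neighbours were not separated by counting error there. Glial progenitor-like cells followed at 159, 204 and 211 CPM, and astrocyte-like cells at 155, 130 and 152 CPM.

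Neuroblast-like and nIPC-like cells held less Rlbp1. Neuroblast-like cells stood at 62.7, 72.0 and 86.4 CPM and nIPC-like cells at 49.7, 59.1 and 65.8 CPM. Microglia-like cells, which should lack the gene, were taken as the background, at 49.1, 15.1 and 32.4 CPM. The wild-type nIPC-like level therefore lay at the level of background in that library. Most wild-type microglia-like cells were shallow. In the deeper microglia-like cluster alone the levels were 18.4, 11.2 and 27.2 CPM, below the neuroblast-like and nIPC-like levels of the same library. Shallow wild-type droplets of another type held more, since erythrocyte-like cells stood at 111 CPM, unnamed cells at 105 CPM and perivascular macrophage-like cells at 82.9 CPM. These lay above the wild-type neuroblast-like and nIPC-like levels. Levels set against a background, and ratios with it subtracted, therefore depend on the class taken for it. GABAergic neuron-like cells were few (17, 33 and 43 cells) and stood at 259 CPM in wild-type (158 to 400), 104 CPM in nestin-Cre (59.5 to 169) and 101.96 CPM in Emx1-Cre (62.3 to 157), on 16 to 20 UMIs a library.

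The share of cells with at least 1 Rlbp1 UMI gave the same order in the wild-type library with depth held equal. Cells under 1500 UMIs were left out, among them 383 of 836 wild-type microglia-like and 19 of 200 OPC-like cells, and the others were thinned to 1500 UMIs. The share was then 37.6% of wild-type OPC-like cells, 29.5% of RGL-like, 25.3% of glial progenitor-like and 18.5% of astrocyte-like cells. It was 9.80% of neuroblast-like, 6.82% of nIPC-like and 5.74% of microglia-like cells. Erythrocyte-like (200 thinned cells) and perivascular macrophage-like cells (67) gave 15.5% and 14.9%, above the neuroblast-like and nIPC-like shares. Without thinning, the wild-type shares were 50% of OPC-like cells (exact 95% interval 42.9 to 57.1%), 47.4% of RGL-like (44.0 to 50.7%) and 10.0% of microglia-like cells (8.09 to 12.3%), at median depths of 2634, 3100 and 1613 UMIs.

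**Figure D2:**
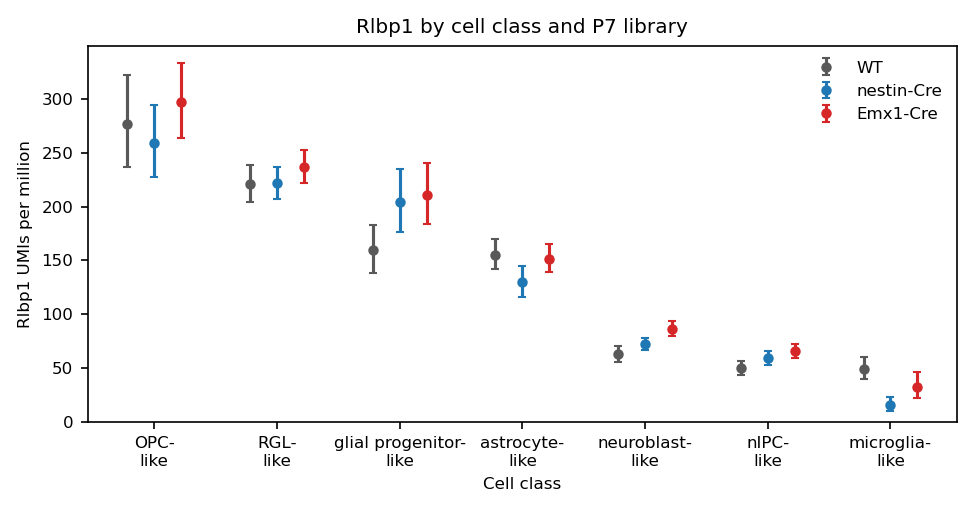
Rlbp1 CPM by cell class (x axis) in the 3 P7 libraries, with exact Poisson 95% intervals that cover counting error only. OPC-like cells lie between 259 and 297 CPM and RGL-like cells between 221 and 237 CPM. Microglia-like cells, taken as the background, lie between 15.1 and 49.1 CPM.

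Within classes, Rlbp1 was uneven. The RGL-like class joined a cluster led by Abca8a and Gdf10, with 270, 256 and 276 Rlbp1 CPM, and a cluster led by Wnt8b, with 147, 124 and 159 CPM. The first lay above the second in all 3 libraries. The larger OPC-like cluster stood at 324, 286 and 344 CPM and the smaller, deeper one at 181, 134 and 172 CPM.

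The rise seen in neurospheres was not found at that size in the RGL-like, OPC-like, astrocyte-like and glial progenitor-like classes at P7. With 1 library per genotype there is no test across animals, and the intervals cover counting error only. In RGL-like cells the ratio to wild-type was 1.00 in nestin-Cre (0.903 to 1.11) and 1.07 in Emx1-Cre (0.969 to 1.19). In OPC-like cells it was 0.937 (0.766 to 1.15) and 1.07 (0.883 to 1.31). In astrocyte-like cells it was 0.838 (0.727 to 0.966) and 0.978 (0.862 to 1.11). Glial progenitor-like cells were higher in both mutants, at 1.28 (1.04 to 1.57) and 1.32 (1.09 to 1.61). All 8 upper bounds lay below the 2.78-fold of the neurospheres. The wild-type library was the shallowest and had the most Rlbp1 in microglia-like cells, and with that background subtracted in each library the glial progenitor-like ratios were 1.71 and 1.62. The part of depth and background in these ratios was not tested further. The neurospheres were cultured from P1 tissue and the cells were taken at P7, and age, culture and assay cannot be told apart.

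In neuroblast-like and nIPC-like cells the ratios were above 1. Neuroblast-like cells gave 1.15 (0.993 to 1.33) in nestin-Cre and 1.38 (1.19 to 1.59) in Emx1-Cre, and nIPC-like cells 1.19 (1.01 to 1.41) and 1.32 (1.13 to 1.56). These levels sit nearest the background. With the level of all microglia-like cells subtracted, the neuroblast-like ratios became 4.18 and 3.96, and with that of the deeper microglia-like cluster they were 1.37 and 1.34. With the members, the pathway list and cell cycle genes kept in the clustering they were 0.792 and 0.759. No direction is read from these ratios.

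**Figure D3:**
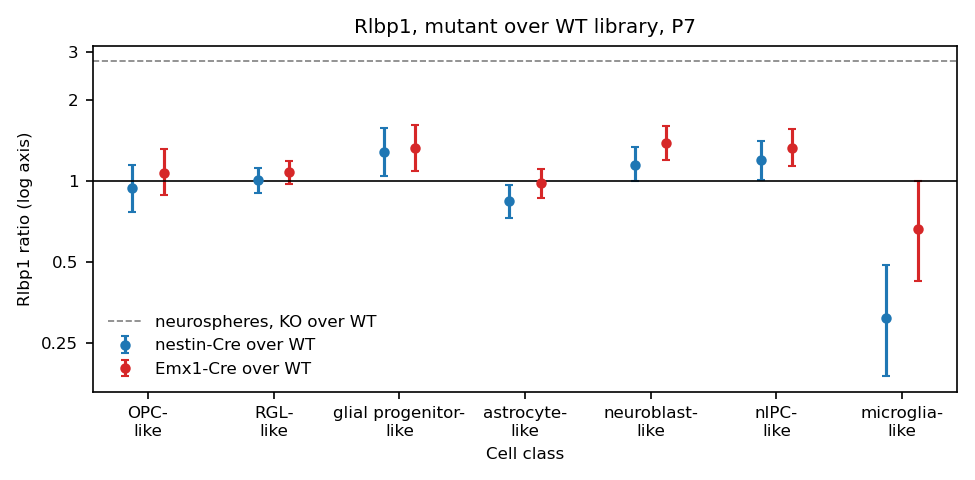
Ratio of Rlbp1 CPM in each mutant P7 library to the wild-type library on a log axis, by cell class, with exact 95% intervals for counting error. RGL-like, OPC-like and astrocyte-like ratios lie between 0.838 and 1.07, and the dashed line marks the 2.78-fold of the neurospheres.

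A gene has to differ at least 1.5-fold and have at least 100 UMIs over a pair of libraries to be counted as different here. In RGL-like cells 10.8% of such genes differed in nestin-Cre and 5.41% in Emx1-Cre. In astrocyte-like cells the shares were 7.88% and 4.64%, in neuroblast-like cells 20% and 9.93%, and in nIPC-like cells 14% and 7.11%. Rlbp1 had enough UMIs in all 8 comparisons and differed in none of them. Microglia-like cells, taken as the background, were not among these comparisons, and there Rlbp1 stood lower in both mutants (49.1, 15.1 and 32.4 CPM). The other members reached 100 UMIs in few. Rdh10 differed in RGL-like cells of nestin-Cre and in neuroblast-like cells of both mutants, Crabp1 in neuroblast-like cells of both mutants and Rxra in neuroblast-like cells of nestin-Cre.

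Crabp1 was the member with the largest ratios at P7 among members with at least 100 UMIs over the libraries compared. Its UMIs numbered 60 in wild-type, 490 in nestin-Cre and 455 in Emx1-Cre, and neuroblast-like cells held 77.1% of them. In neuroblast-like cells Crabp1 stood at 6.97, 48.2 and 49.8 CPM, a ratio to wild-type of 6.93 (4.80 to 10.3) in nestin-Cre and 7.15 (4.95 to 10.7) in Emx1-Cre. After thinning, 0.778% of wild-type, 5.11% of nestin-Cre and 6.07% of Emx1-Cre neuroblast-like cells had a Crabp1 UMI. Microglia-like cells stood at 1.04, 6.31 and 3.14 CPM.

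The clusters of the neuroblast-like class were unevenly filled. The cluster led by Cntn2 and Crym held most wild-type cells of the class (935 of 1427) and most Emx1-Cre cells (1002 of 1965), and the cluster led by Gal, with Crabp1 itself among its leading genes, held most nestin-Cre cells (1276 of 2188). Within the Gal cluster Crabp1 stood at 15.3, 70.9 and 88.2 CPM, a ratio of 4.64 (2.95 to 7.70) and 5.77 (3.67 to 9.59). Within the Cntn2 cluster it stood at 3.50, 19.6 and 20.0 CPM, a ratio of 5.61 (2.95 to 11.8) and 5.72 (3.04 to 11.9). The ratio was thus of similar size in both clusters. At a finer clustering (Leiden resolution 2) the class ratios were 2.46 and 3.397. Crabp1 was nearly absent from the neurospheres, so the cultures give no second reading of it.

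Other members stood higher in mutant neuroblast-like cells too. Rarb rested on 3, 47 and 19 UMIs there, a ratio of 8.90 (2.86 to 44.7) and 3.83 (1.13 to 20.2). Within the Gal cluster, which held all 3 wild-type UMIs, Rarb stood at 2.29, 9.60 and 4.99 CPM, a ratio of 4.19 (1.34 to 21.1) and 2.17 (0.623 to 11.6). Rxra stood at 4.72, 12.1 and 10.1 CPM, a ratio of 2.57 (1.59 to 4.34) and 2.13 (1.30 to 3.65), and Rdh10 at 6.07, 11.4 and 11.4 CPM, a ratio of 1.87 (1.21 to 3.00) and 1.88 (1.21 to 3.02). Rdh10 and Rxra were as high or higher in microglia-like cells, where Rdh10 stood at 13.6, 12.0 and 11.5 CPM. Within the Gal cluster alone, the intervals for Rxra (0.926 to 3.71 and 0.788 to 3.35) and for Rdh10 (0.798 to 3.50 and 0.736 to 3.402) included 1. Within the Cntn2 cluster the ratios were 2.72 (1.30 to 6.25) and 2.43 (1.16 to 5.53) for Rxra and 1.92 (1.05 to 3.65) and 2.10 (1.18 to 3.89) for Rdh10.

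Most Aldh1a1 UMIs lay in astrocyte-like cells. They held 59.9% of its UMIs, at 48.4, 48.8 and 56.4 CPM, and glial progenitor-like cells stood at 37.0, 38.5 and 35.3 CPM. RGL-like cells stood at 0.700, 1.28 and 1.24 CPM. The few leptomeningeal stromal cell-like cells (69, 18 and 10 cells) stood higher, at 66.9, 257 and 199 CPM on 10, 25 and 11 UMIs. The astrocyte-like ratio to wild-type was 1.01 (0.789 to 1.29) and 1.17 (0.938 to 1.45), so that the lower Aldh1a1 level of the knockout neurospheres had no counterpart of that size in P7 astrocyte-like cells. Rdh10 was found in astrocyte-like cells (26.7, 18.9 and 18.2 CPM) and RGL-like cells (18.2, 31.2 and 24.7 CPM). Rdh10 stood higher in leptomeningeal stromal cell-like cells (60.2, 144 and 127 CPM on 9, 14 and 7 UMIs). The few ependymal cell-like cells also stood higher for Rdh10 (158, 93.3 and 180 CPM on 1, 8 and 9 UMIs). The Rdh10 ratio was 1.71 (1.23 to 2.42) and 1.36 (0.963 to 1.94) in RGL-like cells and 0.707 (0.485 to 1.02) and 0.681 (0.483 to 0.957) in astrocyte-like cells. The difference between these classes was not tested.

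The remaining members were sparse. Rara had 87, 72 and 106 UMIs, 40% of them in astrocyte-like cells, at 8.28, 11.8 and 14.7 CPM. Its CPM was higher in some smaller wild-type classes. Mural cell-like cells stood at 18.4, 7.56 and 14.9 CPM on 13, 1 and 9 UMIs. OPC-like cells stood at 16.6, 5.32 and 10.5 CPM on 10, 5 and 10 UMIs. Rxra was highest in microglia-like cells among the classes drawn for it, at 16.2, 18.3 and 17.8 CPM. Crabp2 had 18, 32 and 25 UMIs, of which 33.3% lay in leptomeningeal stromal cell-like cells, a class of the coverings of the brain with 69, 18 and 10 cells.

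**Figure D4:**
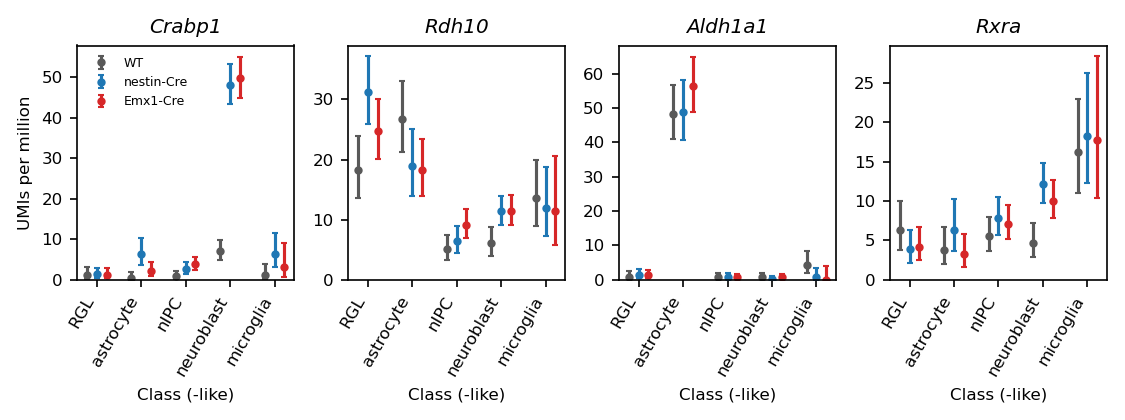
CPM of Crabp1, Rdh10, Aldh1a1 and Rxra in 5 cell classes of the 3 P7 libraries, with exact Poisson 95% intervals for counting error. Crabp1 in neuroblast-like cells lies at 6.97 CPM in wild-type and at 48.2 and 49.8 CPM in the mutants, and Aldh1a1 is found in astrocyte-like cells at 48.4 to 56.4 CPM.

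Of the 51 list genes, 27 had at least 100 UMIs at P7 and 5 had none. The gene with the most UMIs of a role showed where that step was found. Fabp5, a fatty acid-binding protein that also carries retinoic acid, led with 4979, 5275 and 5650 CPM in astrocyte-like cells. Dhrs4, a retinal reductase, stood at 71.8, 78.1 and 85.6 CPM in RGL-like cells, and Rdh5, a retinol dehydrogenase of the visual cycle, at 34.8, 26.2 and 27.6 CPM in nIPC-like cells. Lpl, a lipoprotein lipase, stood at 218, 274 and 303 CPM in microglia-like cells, and Ncor1, a nuclear receptor corepressor, at 298, 348 and 325 CPM in OPC-like cells. Other classes stood close for Dhrs4 and Ncor1, pooled over libraries with at least 50 cells of a class. Dhrs4 stood at 79.2 CPM in RGL-like and 76.9 CPM in perivascular macrophage-like cells. Ncor1 stood at 327 CPM in OPC-like and 312 CPM in nIPC-like cells. Rarres2 stood at 140, 113 and 289 CPM in leptomeningeal stromal cell-like cells, on 21, 11 and 16 UMIs. Rxrb, a retinoid X receptor, stood at 55.3, 52.3 and 48.1 CPM in microglia-like cells, beside 53.5 CPM on 8 UMIs in wild-type leptomeningeal stromal cell-like cells. Bco2, a carotenoid-cleaving enzyme, had 164 UMIs in all, and no order of classes is read for it. Aldh1a3 and Cyp26b1, which make and break down retinoic acid, had 157 and 40 UMIs in all.

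The genes whose pattern over 30 class and library units (13 classes) was most like that of Rlbp1 were Itgb8, Alcam, Kcnmb4, Fam181b, Sqle, AI854517, Nlgn1, Shisa4, RP23-207N5.2 and Eif1b, with Pearson's r of log2(CPM + 1) from 0.92 down to 0.90. They were the top 10 of 12072 genes compared. The units share 3 libraries and their depths, so r is a description. The other members had r between -0.21 and 0.36.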

How the data were processed

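In the neurosphere table, the deposited values are raw counts of reads per gene. The authors aligned with Minimap2 against Ensembl transcripts, and the treatment of shared reads and of strand is not stated. Of its 10 columns, 5 were used and 5 match no sample. The deposited P7 values are raw UMI counts from Cell Ranger (4.0.0 per the file headers, while the methods name another version), and the labels name mm10. ATAC-seq and CUT&Tag were not analysed here.

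Counts were tested with edgeR 4.0.16 (TMM, robust quasi-likelihood test, R 4.3.3, Benjamini-Hochberg adjustment), with DESeq2 1.42.0 as an alternative. Symbols matched 39373 of 40814 genes. Replicates differed by more than sampling noise, and nothing in the labels says that cultures came from separate animals, so that p-values measure the spread between these cultures.

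Cells with more than 500 genes and under 15% mitochondrial UMIs were kept, log-normalized to 10000 UMIs, scaled within each library and clustered (2000 variable genes, 30 principal components, 15 neighbours, Leiden resolution 1; Python 3.11.15, scikit-learn 1.9.0, leidenalg 0.10.2). Members, the pathway list and cell cycle genes were left out of the clustering. A class name needed at least 3 raised markers. Doublets were kept, and Scrublet (scanpy 1.11.5) was an alternative. It called 2 of 10997 wild-type cells, so the cells at or above the score that bounds the top 6% were removed there (716 cells, ties included). Levels are summed UMIs on the CPM scale with exact Poisson intervals, and ratios have exact conditional intervals, at 95%. Steps were tested on simulated data.

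The members, lists and tests were chosen with earlier results of these data known. Named genes were the members, Larp7, list genes called in neurospheres, the list gene with most UMIs per role and the 10 genes most like Rlbp1 (at least 200 UMIs, units of at least 50 cells). Results for a few of these genes are left out.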

Additional observations from a re-analysis of the deposited data

Results flagged for a closer look

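Rdh10 lay above wild-type in both mutant P7 libraries in some cell classes and below it in another. Its ratio to wild-type was 1.71 in nestin-Cre and 1.36 in Emx1-Cre for RGL-like cells, 1.87 and 1.88 for neuroblast-like cells, and 0.707 and 0.681 for astrocyte-like cells. The intervals of the Emx1-Cre RGL-like and nestin-Cre astrocyte-like ratios included 1, as did both neuroblast-like intervals within the Gal cluster. An opposite direction between classes is not read for Rdh10. Rlbp1 ratios were smaller but also lay on both sides of 1, at 0.838 and 0.978 in astrocyte-like cells against 1.00 and 1.07 in RGL-like, 1.19 and 1.32 in nIPC-like and 1.15 and 1.38 in neuroblast-like cells. No direction is read for Rlbp1, since its sides changed under some settings. With the microglia-like level subtracted the astrocyte-like ratios were 1.08 and 1.13 (0.869 and 0.911 with the deeper microglia-like cluster subtracted), with more than 200 genes per cell they were 0.962 and 1.10, and with the members, list and cell cycle genes in the clustering the neuroblast-like ratios were 0.792 and 0.759. The nestin-Cre ratio of RGL-like cells exceeded 1 by far less than its counting error. The differences between classes were not tested, and both mutant libraries were set against the same wild-type library.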

How the results depend on the processing

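The Rlbp1 log2 fold change of the neurospheres stayed between 1.41 and 1.57 when each culture was left out in turn. Rlbp1 was chosen on these same cultures, so its values in these and the other fits are a description and no support. The list gave 0 calls in each direction in the fits that left out a knockout culture. The number of genes called was unstable. Over all genes, edgeR called 4 higher and 8 lower, against 64 and 121 with no filter on low counts, 11 and 16 with at least 1 CPM in 2 libraries, 3 and 6 with DESeq2's size factors, 3 and 3 without robust dispersions (chosen after seeing the data), and 793 and 944 with DESeq2. Without the first wild-type culture it called 1144 and 976, without the second 7 and 5, and without knockout culture 1, 2 or 3 it called 2 and 0, 2 and 2, and 0 and 0. In the pathway list DESeq2 called 1 gene higher and 1 lower. The cultures share replicate numbers only, with correlations of their deviations of 0.06 and 0.24, and a fit with the replicate block gave a log2 fold change of 1.43 for Rlbp1, 0 calls in the list and 0 calls over all genes.

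For P7, the wild-type Rlbp1 level of astrocyte-like cells became 137 CPM with more than 200 genes per cell and 139 CPM at Leiden resolution 2, and that of RGL-like cells 201 CPM at resolution 2, 249 CPM with the members, list and cell cycle genes in the clustering and 245 CPM with scaling over all cells together. Thinning gave 251 CPM in RGL-like, 346 CPM in OPC-like and 204 CPM in glial progenitor-like cells, and ratios of 1.13 (astrocyte-like, Emx1-Cre), 0.761 (OPC-like, nestin-Cre) and 1.08 (glial progenitor-like, Emx1-Cre). With the microglia-like level subtracted, chosen after seeing the data, the nestin-Cre and Emx1-Cre ratios were 1.20 and 1.19 in RGL-like, 1.08 and 1.13 in astrocyte-like and 1.71 and 1.62 in glial progenitor-like cells. In microglia-like cells Rlbp1 stood at 49.1 CPM in wild-type and 32.4 CPM in Emx1-Cre. That ratio turned to 1.74 with at least 1000 genes per cell, a setting that leaves out shallow cells. The cause of the difference and of its change was not tested. The background limits what can be said of Rlbp1 in nIPC-like and neuroblast-like cells, and for neuroblast-like cells the clustering does too. Their wild-type depth was only slightly lower than in the mutants. Medians were 3841, 4167 and 4257 UMIs in nIPC-like and 3152, 3526 and 3705 UMIs in neuroblast-like cells. With 1 library per genotype, the spread between animals stays unknown.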
